A study of Caenorhabditis elegans with 2 samples.

Results

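The genes described here are those that make, take up and switch on yolk in Caenorhabditis elegans: the vitellogenin genes vit-1 to vit-6, the yolk receptor gene rme-2, and the regulator genes ceh-60 and unc-62. They were chosen by their WormBase symbol, and all 9 were matched among the 46748 gene identifiers of the deposited count table. RNA came from whole wild-type hermaphrodites aged 5 days, fed heat-inactivated E. coli OP50, the usual laboratory food bacterium. The labels leave the wild-type strain unspecified in one field and write N2 in the sample names. There is 1 group with 2 libraries, so no condition is compared, and nothing in the labels says that the libraries came from separate cultures. The spread between them may therefore be technical.

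Vitellogenins are large lipid-carrying proteins. In C. elegans they are made in the intestine of the hermaphrodite, secreted into the body cavity and taken up by growing oocytes through RME-2, a receptor of the low-density lipoprotein (LDL) receptor family. vit-1 to vit-5 encode the larger yolk polypeptides, and vit-6 encodes a precursor that is cut into the smaller ones. UNC-62, a homologue of the MEIS homeodomain proteins, and CEH-60, a homologue of the PBX homeodomain proteins, are required in the intestine for full vitellogenin expression.

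The libraries held 28164638 counts in replicate 1 and 31271070 in replicate 2. With at least 10 counts in both libraries, 12268 protein-coding genes were detected, all 9 yolk genes among them. Of all 46748 genes of the table, which include genes that do not code for protein, 12757 passed this rule. The share among all protein-coding genes is not given here. Levels are given as RPKM, the counts scaled to the library's own total (CPM) divided by the exon length of the gene in kilobases. Over the detected protein-coding genes the median RPKM was 11.5. Ribosomal RNA took 2.45% and 1.62% of the counts of replicates 1 and 2. The libraries differed over all genes by more than counting noise (chi-square per degree of freedom 8.82). They are therefore not the same counts deposited again, which does not show that the library preparations or the samples were separate. Markers of the tissues involved were present: all 6 oocyte and germline markers were detected, with summed levels of 3291 and 3169 RPKM in replicates 1 and 2, and all 6 intestinal markers, with 117 and 110 RPKM. Of 4 male markers 1 was detected, with a sum of 0.329 and 0.310 RPKM, and cwp-1 had no count in either library.

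Transcripts of the vitellogenin genes were among the most abundant in the animals, and those of their regulators were far less abundant. The 6 vitellogenin genes took 7.80% of all counts in replicate 1 (95% Wilson interval 7.79% to 7.81%) and 7.93% in replicate 2 (7.92% to 7.94%), a mean of 7.86% ± 0.0919 (SD, n = 2). vit-6, vit-5 and vit-2 alone held 7.30% ± 0.0770. vit-6 had more counts than any other gene in both libraries. vit-5 and vit-2 ranked 3 and 4 by counts in replicate 1, and 2 and 3 in replicate 2. The intervals cover counting error only and were narrower than the spread between the libraries.

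**Figure D1:**
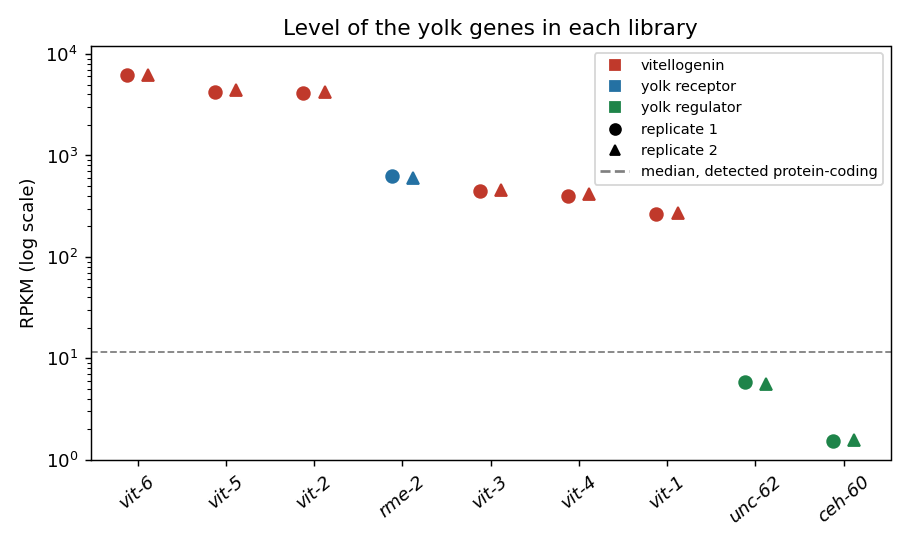
Level of each yolk gene in RPKM (log axis) in replicate 1 (circles) and replicate 2 (triangles), coloured by role, with the median of detected protein-coding genes as a dashed line. vit-6, vit-5 and vit-2 lie at 4107 RPKM or more, rme-2 and the other vitellogenins between 267 and 628 RPKM, and both regulators under the line.

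vit-6 (WBGene00006930) lies on chromosome IV from 8261157 to 8266459 on the plus strand, in the WBcel235 build, and is the only vitellogenin gene off chromosome X. Its level was 6231 RPKM in both libraries, from 888659 counts in replicate 1 and 986756 in replicate 2. It ranked 2 among detected protein-coding genes and was 542 times their median. It held 40.1% ± 0.467 of all vitellogenin counts, and 16.3% ± 0.0630 of the counts of chromosome IV.

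vit-5 (WBGene00006929, chromosome X, 3403471 to 3408603, plus strand) was next, with 4241 and 4386 RPKM in replicates 1 and 2. vit-2 (WBGene00006926, chromosome X, 5101042 to 5106169, plus strand) had 4107 and 4184 RPKM. These genes lay close together: vit-5 exceeded vit-2 by 1.04-fold ± 0.0111 (n = 2), and its lower library stood above the higher library of vit-2. vit-6 exceeded vit-5 by 1.44-fold ± 0.0343.

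The other 3 vitellogenin genes were about an order of magnitude lower. vit-3 (WBGene00006927, chromosome X, 3567355 to 3572549, minus strand) had 442 and 461 RPKM in replicates 1 and 2. vit-4 (WBGene00006928, chromosome X, 3558769 to 3563965, minus strand) had 396 and 416 RPKM. vit-1 (WBGene00006925, chromosome X, 7727889 to 7733168, plus strand) had 267 and 270 RPKM. The library ranges of these genes did not overlap, and even vit-1 was 23.4 times the median of detected protein-coding genes.

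Related copies differed widely in level in some cases and little in others. vit-3 and vit-4 lie on the same strand with 3389 bases and no annotated gene between them, and vit-5 lies 158751 bases from vit-3 on the other strand. All 3 have 6 exons and 4809 coding bases. vit-5 exceeded vit-3 by 9.56-fold ± 0.0594 and vit-4 by 10.6-fold ± 0.118, while vit-3 and vit-4 differed by 1.11-fold ± 0.00548. Of the counts of this trio, vit-5 held 83.3% ± 0.119, vit-3 8.81% ± 0.0421 and vit-4 7.93% ± 0.0770. vit-1 and vit-2, each with 5 exons, differed by 15.4-fold ± 0.0652. vit-3, vit-4 and vit-5 are known as closely similar copies, but how much sequence they share was not measured here. The sources used here do not say how multi-mapping reads were counted. The split of reads among such copies is therefore uncertain, and its part in these ratios was not tested.

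Summed over related copies, the levels were more alike than those of all 6 single genes, but vit-2 and vit-5 made up most of the sums. vit-2 alone had 4107 and 4184 RPKM, and vit-5 alone 4241 and 4386 RPKM, in replicates 1 and 2. These single genes were already alike: vit-6 exceeded vit-5 by 1.44-fold, and vit-5 exceeded vit-2 by 1.04-fold. vit-1 and vit-2 together had 4374 and 4455 RPKM in replicates 1 and 2. vit-3, vit-4 and vit-5 together had 5078 and 5263 RPKM. Against the 6231 RPKM of vit-6, the summed trio was lower by a ratio of 1.21 ± 0.0303 (vit-6 over the sum), and the summed pair by a ratio of 1.41 ± 0.0181. A sum is not changed by how reads are split within a group of copies, but it would miss reads that were dropped for matching more than 1 place.

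The 5 vitellogenin genes of chromosome X took a large part of the reads assigned to it. vit-1 to vit-5 held 48.6% of the chromosome X counts in replicate 1 (95% Wilson interval 48.57% to 48.69%) and 48.8% in replicate 2 (48.72% to 48.84%). All 5937 chromosome X genes of the table took 9.66% ± 0.167 of all counts, and without these 5 genes the chromosome held 4.96% ± 0.0750.

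**Figure D2:**
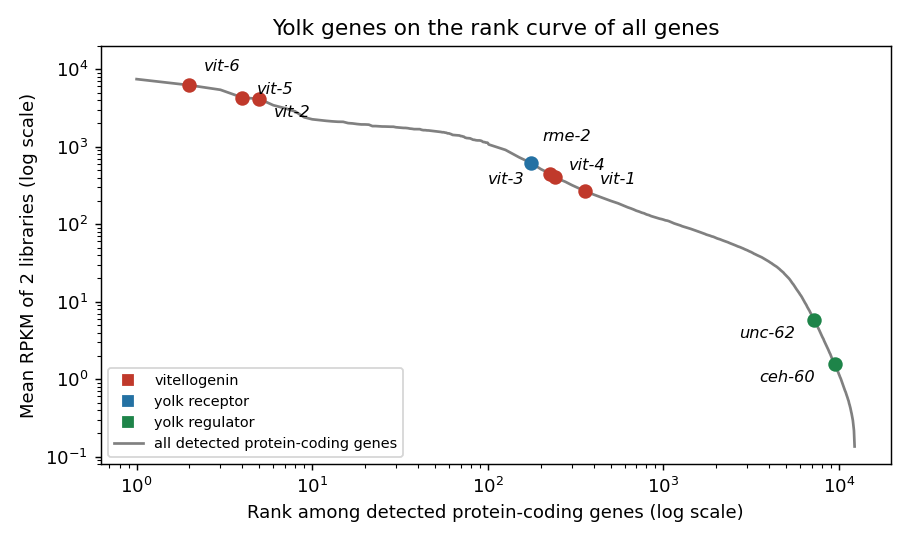
Mean RPKM of the 2 libraries against rank (both log axes) for all detected protein-coding genes (grey line), with the yolk genes marked by role. The vitellogenins and rme-2 lie between rank 2 and rank 357, unc-62 at rank 7237 and ceh-60 at rank 9424 of 12268.

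rme-2 (WBGene00004374, chromosome IV, 5470026 to 5473174, plus strand), which encodes the oocyte receptor for yolk, was also abundant. It had 628 and 603 RPKM in replicates 1 and 2, rank 177 among detected protein-coding genes. It had fewer counts than vit-3 and vit-4 (50740 and 54085 in replicates 1 and 2), but its exons span 2867 bases against 4924 and 4936, so per length it stood 1.37-fold ± 0.0803 above vit-3. It was 1.34-fold ± 0.0395 above gld-1, a germline RNA-binding protein gene at 460 RPKM ± 0.310. The 6 vitellogenin genes summed to 25.7 ± 1.05 times the level of the receptor, a ratio of 24.96 in replicate 1 and 26.4 in replicate 2. In RNA from whole animals, fewer cells of a type and less RNA per cell cannot be told apart, so neither level is a level per oocyte or per intestinal cell.

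The other listed genes of the family were low beside rme-2: the LDL receptor-related genes lrp-1 and lrp-2 had 8.12 ± 1.01 and 7.77 ± 0.592 RPKM, and rme-2 exceeded lrp-1 by 76.3-fold ± 7.31. All 15 listed genes of endocytosis and receptor recycling were detected, and all 15 lay above the median of detected protein-coding genes. Their median was 56 RPKM, and they ran from rme-6, which encodes an activator of the early endosome GTPase RAB-5, at 12.04 ± 0.0607 RPKM, to rab-11.1, a recycling endosome GTPase gene, at 347 ± 2.07 RPKM. The clathrin heavy chain gene chc-1 had 166 ± 7.48 RPKM, rab-5 141 ± 2.38 RPKM, and rme-1, which acts in the return of receptors to the surface, 75.9 ± 1.42 RPKM. The receptor gene stood above each of them, by 1.78-fold ± 0.0406 over rab-11.1.

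The regulator genes sat at the other end of the range. unc-62 (WBGene00006796, chromosome V, 4497461 to 4511449, plus strand) had 1049 and 1122 counts, or 5.87 and 5.65 RPKM in replicates 1 and 2. ceh-60 (WBGene00017690, chromosome X, 6522596 to 6530146, minus strand) had 58 and 65 counts, or 1.55 and 1.56 RPKM. ceh-60 thus took 0.000206% of the counts in replicate 1 (95% Wilson interval 0.000159% to 0.000266%), 19.3 times the floor of 3 counts. At this depth the ± of a ceh-60 level, or of a ratio to it, can be smaller than counting error. The exact 95% counting interval of ceh-60 in replicate 2 over replicate 1 ran from 0.697 to 1.46. vit-1, the lowest vitellogenin, exceeded unc-62 by 46.7-fold ± 1.65, and unc-62 exceeded ceh-60 by 3.71-fold ± 0.122, both with annotated exon lengths.

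Both regulator levels, and these ratios, depend on the gene length used. The annotation gives unc-62 18 transcripts whose exons cover 6345 bases, whereas the deposited RPKM imply a length of 2897 bases for it. With the implied length unc-62 had 12.6 ± 0.333 RPKM, which is above and no longer below the matching median of detected protein-coding genes (11.99 RPKM), and it was 6.99 ± 0.231 times the level of ceh-60 and lower than vit-1 by 20.8-fold ± 0.734. With its 1865 coding bases alone it had 19.6 ± 0.518 RPKM, 10.2 ± 0.338 times the level of ceh-60 and lower than vit-1 by 14.4-fold ± 0.508. For ceh-60 the lengths were 1331 and 1146 bases, and its level with the implied length was 1.81 ± 0.0119 RPKM. The end of ceh-60 shares 72 exonic bases with ets-4, an ETS-family transcription factor gene on the opposite strand with 319 and 397 counts. The sources used here do not say whether counting used strand, and without it reads in those bases cannot be told apart. vit-2, vit-3 and vit-4 also overlap an annotated gene on the other strand, sharing 11, 171 and 150 exonic bases with it. Each of those partners had 0 counts in both libraries. Whether vitellogenin reads in the shared bases were dropped is not known, because the counting options are not given.

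With annotated exon lengths, relatives of the regulators were also under the median of detected protein-coding genes, some above and some below unc-62 and ceh-60. With the implied and coding lengths unc-62 had 12.6 and 19.6 RPKM, above the levels given here for all 4 relatives. Levels of the relatives with those other lengths are not given here. Among the TALE homeobox genes, the class that holds MEIS and PBX, ceh-20 (a PBX homologue) had 10.7 ± 0.322 RPKM, 6.85-fold ± 0.253 above ceh-60. ceh-40, another PBX homologue, had 7.65 ± 0.402 RPKM and irx-1 1.72 ± 0.0636 RPKM. The MEIS-related gene psa-3 was lowest, with 0.295 and 0.585 RPKM in replicates 1 and 2, from 10 and 22 counts. All 4 were detected.

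The next list holds genes of pathways known to act on vitellogenin expression, and also dsc-4, described below. Its genes were mostly detected, at levels under those of all 6 vitellogenin genes. Of 18 listed genes 17 were detected, 8 of the 18 lay above the median of detected protein-coding genes, and their own median was 7.77 RPKM. A median splits genes evenly, so 8 of 18 does not set this list apart. The highest was skn-1, a transcription factor gene of stress and lipid responses, at 109 ± 4.52 RPKM. rict-1, which encodes the TORC2 subunit Rictor, had 62.5 ± 1.32 RPKM, and sgk-1, a kinase gene downstream of it, 5.11 ± 0.161 RPKM. pqm-1, an intestinal zinc-finger transcription factor gene, had 13.9 ± 0.00488 RPKM, and the insulin receptor gene daf-2 had 38.6 ± 1.77 RPKM.

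The intestinal GATA factor gene elt-2 had 4.12 ± 0.365 RPKM, close to the SMAD gene sma-3 at 3.91 ± 0.0579 RPKM. The ligand gene of that pathway, dbl-1, had 1.69 and 1.13 RPKM in replicates 1 and 2, from 82 and 61 counts. dsc-4, which encodes a homologue of the microsomal triglyceride transfer protein that loads lipid onto lipoproteins, had 14.3 ± 0.0734 RPKM. mab-3, which represses vitellogenin genes in males, was the only undetected gene of the list, with 4 and 6 counts in replicates 1 and 2. Of the 6 intestinal markers 2 lay above the median of detected protein-coding genes, and all 6 lay under vit-1. act-5, the actin gene of the gut microvilli, was highest at 71.5 ± 4.91 RPKM, under vit-1 by 3.77-fold ± 0.292 and under vit-6 by 87.3-fold ± 6.003.

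**Figure D3:**
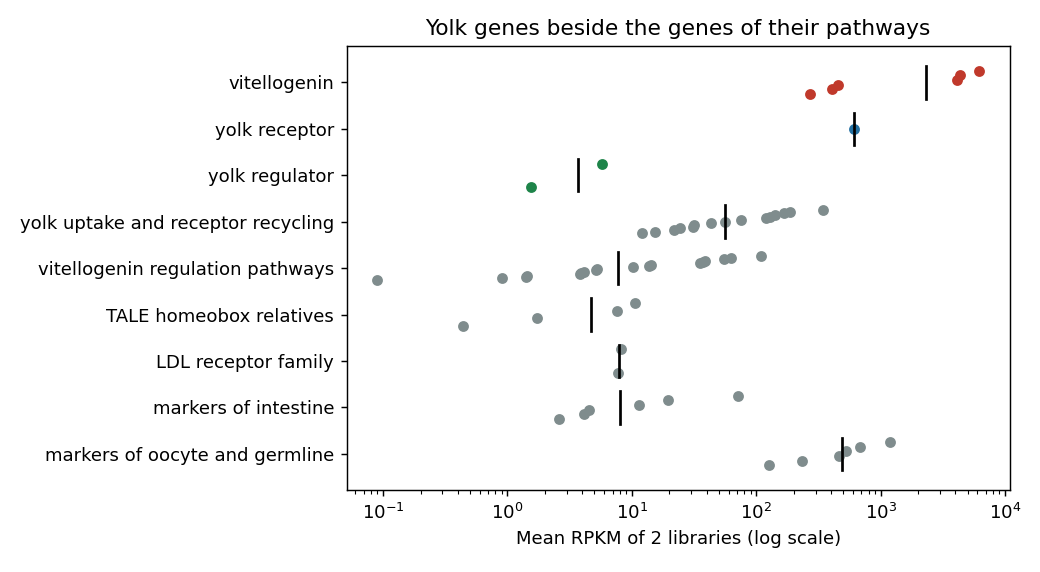
Mean RPKM of the 2 libraries (log axis) for each gene of the yolk groups, the listed pathways and 2 sets of tissue markers; each point is a gene and each black bar the median of its list. The vitellogenins are spread from 269 to 6231 RPKM, and their median of 2298 RPKM lies to the right of every other list's median.

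The yolk genes had nearly the same levels in both libraries. A gene was counted as different where its CPM was at least 25% higher in one library than in the other. None of the yolk genes was, 0 of 9. Of 14397 genes holding 10 counts or more over both libraries 23.2% were, and of the 7225 genes holding 500 or more 2.49% were. The second share is the closer background for 8 of the 9; ceh-60 had fewer counts. At a share of 2.49% a count of 0 among 9 genes does not set the yolk genes apart. The ratios of replicate 2 to replicate 1 ran from 0.960 for rme-2 to 1.05 for vit-4, with a median of 1.01, equal to the median of 1.01 over the 7225 genes. These ratios compare 2 libraries of 1 group, not conditions, and no p-value is given.

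**Figure D4:**
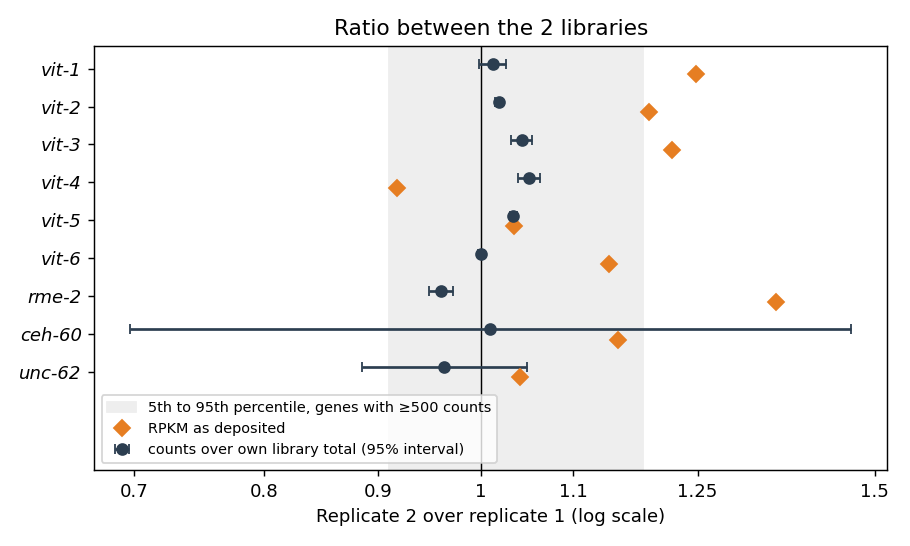
Replicate 2 over replicate 1 (log axis) for each yolk gene, from counts over each library's own total (dark points, with exact 95% counting intervals) and from RPKM as deposited (orange diamonds); the grey band spans the 5th to 95th percentile of genes holding 500 counts or more. The dark points lie between 0.960 and 1.05, and the deposited values between 0.918 and 1.36.

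Among the vitellogenins, vit-6 had a ratio of 1.0001 (exact 95% interval 0.997 to 1.003), while vit-4 had 1.05 (1.04 to 1.06) and vit-3 had 1.04 (1.03 to 1.05). rme-2 was lower in replicate 2, at 0.960 (0.948 to 0.972). The interval excluded 1 for 5 of the 9 genes, but it holds counting error only. From the 25th to the 75th percentile the 7225 genes ran from 0.973 to 1.07. The ratios of all 6 vitellogenin genes and of ceh-60 lay inside that range, and those of rme-2 and unc-62 (0.963) just under it. For ceh-60 the interval ran from 0.697 to 1.46, so a difference of 25% was not detectable at its depth.

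The RPKM values as deposited give another picture of the same counts. The read total behind them changes with the row of the table in a cycle of 8 rows. At none of the 8 row positions was it the library's own total in both libraries. This holds for all genes of the table, not for the yolk genes alone. Their ratio of replicate 2 to replicate 1 was 1.36 for rme-2, 1.248 for vit-1, 1.22 for vit-3 and 0.918 for vit-4. In the deposited table the order of vit-3 and vit-4 turned as well: the deposited RPKM were 401 and 489 for vit-3 and 477 and 438 for vit-4 in replicates 1 and 2, and those ranges overlap. With each library's own total, vit-3 stood above vit-4 in both.

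The detected protein-coding genes nearest in level to each yolk gene were found by the summed distance of log2 RPKM over both libraries. The yolk genes themselves were left out of this search, so vit-5 and vit-2, only 1.04-fold apart, were not matched to each other. Near the top of the ranking few other genes lay close. For vit-6 the nearest were sip-1, a small heat shock protein gene (5435 ± 80.7 RPKM), and the elongation factor gene eef-1A.1 (7459 ± 91.2 RPKM), at distances of 0.39 and 0.52. For vit-2 and for vit-5 they were the ribosomal protein gene rps-25 (3435 ± 124 RPKM) and sip-1, at distances from 0.54 to 0.78. The nearest genes to rme-2 were cyc-2.1, a cytochrome c gene (608 ± 2.08 RPKM), and the collagen gene col-95 (611 ± 37.6 RPKM), both at 0.07. The remaining genes had neighbours within 0.04. For vit-1 these were ifet-1 and acp-6, for vit-3 D1054.10 and W08E12.7, and for vit-4 vha-2 and Y69A2AR.18. For unc-62 they were ZK131.11 and T10G3.3, and for ceh-60 the nuclear hormone receptor genes nhr-107 and nhr-5.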

How the data were processed

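Per the submitters' processing notes, STAR 2.4.1d, featureCounts 1.4.6-p4 and build WBcel235 were used. The labels name total RNA and an Illumina mRNA kit. The sources used here do not give read length, counting options, strand setting or annotation. The authors deposited raw counts per gene and RPKM. How the authors computed the deposited RPKM is not given. Counts divided by deposited RPKM and exon length gave a read total that changed with the row number in 8 classes, so deposited RPKM served only as an alternative and to estimate gene lengths; those totals were themselves estimated with annotated exon lengths.

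CPM used each library's own total (28164638 and 31271070 counts), and RPKM here is CPM per kilobase of the union of exons in Ensembl release 115 (WBcel235). Of 46748 rows, 46449 were in that annotation. A floor of 3 counts equals 0.107 and 0.0959 CPM. Replicates were numbered in accession order, and values are mean ± SD of 2 libraries. An SD from 2 libraries can fall below counting error, most of all for genes with few counts. Detected means at least 10 counts in both. Shares have 95% Wilson intervals and ratios between libraries exact conditional binomial intervals, covering counting error only. The ratio calculation was tested on simulated data. TMM factors came from edgeR 4.0.16 and size factors from DESeq2 1.42.0, with Python 3.11.15. Named genes are the 9 yolk genes, the highest and lowest of each list and those a result turns on, overlapping genes, and the 2 nearest in level to each yolk gene; other list members were named for their role, after their values were seen. The genes and lists were chosen with earlier results of these data known. Promoter and protein sequences were not analysed here.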

Additional observations from a re-analysis of the deposited data

How the results depend on the processing

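The order of the 9 genes was the same under other library totals (without ribosomal RNA genes, protein-coding genes only, TMM, DESeq2 size factors), with coding or implied gene length, and in each library alone. With RPKM as deposited vit-3 and vit-4 changed places, and 1 gene (rme-2) was 25% or more higher in one library than in the other, against 0 with own totals. That ratio and the implied lengths were chosen after seeing the data. The vitellogenin share was 8.02% without ribosomal RNA genes in the total and 8.07% of protein-coding counts, since those totals are smaller, and 7.80% to 7.93% with either library left out. The median level of the 9 genes ran from 442 to 461 RPKM with either library left out. The share of all genes that differed by this much fell from 23.2% to 2.49% with at least 500 counts in the sum. With coding length in place of exon length, single levels moved by 1.01 to 3.40 times, the most for unc-62. No paired analysis was possible because there is 1 group and nothing to pair. Comparisons of shared sequence, unique exon length, protein identity and promoter motifs were not run. Depth limits ceh-60 (58 and 65 counts) and psa-3 (10 and 22 counts).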
